A study of Mus musculus with 5 samples.

Results

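The kinesin family of the mouse was described in cells of the synchronized testis. Members were every gene symbol in the deposited feature table that starts with Kif or Kifc followed by a digit, which gave 43 members among 27998 features. Of these, 41 encode proteins of the kinesin motor family. The other members were Kif1bp, which encodes a binding protein without a motor, and Kif16bos, an RNA from the strand opposite Kif16b. By their textbook roles the 41 were grouped into 16 of the mitotic spindle and cytokinesis, 9 of the cilium and flagellum, and 16 of cargo transport and other functions. The mitotic group, as counted below, includes Kif24, which restrains cilium growth in cycling cells.

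Kinesins are motor proteins that use ATP to move along microtubules or to take them apart at their ends. In a dividing cell they separate the poles, align the chromosomes and build the midzone at which the daughter cells part. In other cells they carry vesicles, organelles and RNA. The testis uses all of these activities, since spermatogonia divide by mitosis, spermatocytes divide by meiosis without completing abscission, and spermatids reshape the nucleus with the manchette, a skirt of microtubules, and build a flagellum. Sertoli cells, the supporting cells of the seminiferous tubule, divide while they are immature and later hold a stable array of microtubules along which germ cells and vesicles are moved.

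The study followed the maturation of Sertoli cells with single-cell RNA sequencing of dissociated whole testis. Testes were synchronized and taken at 5 times, 0 h (labelled the control), 144 h, 350.4 h, 556.8 h and 763.2 h, described as successive returns of stages VIII and IX of the seminiferous cycle. The sources used here do not name the strain, the age or the synchronizing agent, and all 5 libraries, the 0 h library included, are labelled synchronized. Each time had 1 library, so no comparison below has a replicate check and none was tested. Values are counts of unique molecular identifiers (UMIs). For each library the UMIs of all cells in 1 class were added up and given as CPM, the usual scale that sets every such sum to the same total. Intervals are exact 95% intervals that cover counting error only, and they do not contain the differences between animals or between preparations. A member was called higher or lower when the ratio of 2 sums was at least 2 or at most 0.5 with at least 20 UMIs over both sums. Without replicates, these calls are statements about these libraries.

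The libraries held 7441 to 11987 barcodes and 75578147 to 118147393 UMIs, with a median of 2864 to 7551 UMIs per barcode. Any pair of libraries shared 11 to 37 barcode sequences, at most 0.454% of the smaller library. After filtering, 4658 to 11082 cells per library were kept, grouped into 68 clusters without the use of any kinesin, and named from marker genes as "like" a cell type. The share of kept cells that could not be placed in a class was 0.207%, 25.6%, 42.3%, 13.8% and 44.7% over the 5 times. Sertoli-like cells numbered 3068, 2348, 531 and 53 at 0, 144, 350.4 and 556.8 h, and the 14 such cells at 763.2 h were too few for a value. All 12 Sertoli markers were detected in each of these 4 sums, at 12630, 17500, 17150 and 12420 CPM together. Spermatogonia-like cells were present at every time, spermatocyte-like cells numbered 35 at 144 h and 5690 at 556.8 h, and spermatid-like cells were present from 350.4 h.

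Markers of late germ cells were detected in every class at the later times. The 11 markers of elongating spermatids summed to 2.05, 0.680, 369 and 7791 CPM in Sertoli-like cells over 0 to 556.8 h. At 763.2 h they summed to 4012 CPM in undifferentiated-spermatogonia-like cells, against 274800 CPM in elongating-spermatid-like cells. The 10 markers of pachytene or later spermatocytes summed to 85.8, 116, 886 and 3364 CPM in the Sertoli-like sums. Values of germ-cell kinesins in Sertoli-like cells and spermatogonia-like cells at the late times are therefore given beside these sums. How much of each value came from free RNA was not measured. An estimated share was subtracted as an alternative, in Sertoli-like cells and in germ classes.

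Promoter sequences were available from RefSeq (build GRCm38.p6) for 34 of the 43 members, as the 250 bases upstream of the start. A pair of motifs of cell-cycle promoters was searched on both strands, the CCAAT box (CCAAT) and the cell-cycle homology region (CHR, TTTGAA or TTCGAA), together with the cyclic AMP response element (CRE, TGACGTCA) known from spermatid promoters. A CCAAT box lay in 10 of 15 mitotic members (66.7%), 4 of 8 cilium and flagellum members (50.0%), 2 of 10 cargo members (20.0%) and 37.5% of all 27025 genes of the table. A CHR lay in 6 of 15 mitotic members (40.0%), against 19.6% of all genes. A CRE lay in Kif17 and Kif5c, 2 of 34 members (5.88%), against 1.77% of all genes. These matches are descriptions of the letters and not sites shown to be bound. Of the 15 mitotic members, 4 held both cell-cycle motifs (Kif11, Kif14, Kif22 and Kif24). The windows of Kif14 (chr1:136467598-136467847) and Kif17 lie inside the gene in the GENCODE annotation. There these plus-strand genes start at 136466343 and 138250435. Both windows are thus upstream of the RefSeq start only and need not be promoters, but they count in the totals above. The windows of Kif22 and Kif24 reach past the GENCODE start of these minus-strand genes, at 127042471 and 41464887. The CHR of Kif24 and the CHR of Kif22 nearest the RefSeq start lie inside the annotated gene. The windows of Kif11, Kif22 and Kif24 are printed as examples of members of the mitotic group that were lower in Sertoli-like cells at 144 h than at 0 h. Kif14, whose window is not shown, was lower as well, and so were mitotic members without these motifs. The windows of Kif17 and Kif5c are printed because both were higher in spermatid-like than in spermatocyte-like cells. Other members that were higher there had windows without a CRE, namely Kif2b, Kif2c, Kif16bos, Kif1a, Kif21a and Kif27. Kif5c was not confined to spermatids, with 60.3 CPM in spermatogonia-like cells at 0 h. Capitals mark the CCAAT box and the CHR in Kif11 (chr19:37376132-37376381, plus strand), Kif22 (chr7:127042421-127042670, minus strand) and Kif24 (chr4:41464849-41465098, minus strand), and the CRE in Kif17 (chr4:138262001-138262250, plus strand) and Kif5c (chr2:49619036-49619285, plus strand). Each window is written 5′ to 3′ on the strand of the gene.
Kif11: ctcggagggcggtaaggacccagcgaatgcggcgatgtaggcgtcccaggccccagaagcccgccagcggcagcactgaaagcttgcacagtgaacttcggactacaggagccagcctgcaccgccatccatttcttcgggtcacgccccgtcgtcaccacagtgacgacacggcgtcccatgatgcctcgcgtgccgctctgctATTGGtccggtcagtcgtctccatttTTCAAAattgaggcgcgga
Kif22: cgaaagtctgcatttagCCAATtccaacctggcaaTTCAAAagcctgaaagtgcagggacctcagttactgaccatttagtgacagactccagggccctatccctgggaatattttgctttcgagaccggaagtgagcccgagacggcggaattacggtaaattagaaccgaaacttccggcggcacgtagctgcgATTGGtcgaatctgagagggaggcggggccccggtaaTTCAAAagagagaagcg
Kif24: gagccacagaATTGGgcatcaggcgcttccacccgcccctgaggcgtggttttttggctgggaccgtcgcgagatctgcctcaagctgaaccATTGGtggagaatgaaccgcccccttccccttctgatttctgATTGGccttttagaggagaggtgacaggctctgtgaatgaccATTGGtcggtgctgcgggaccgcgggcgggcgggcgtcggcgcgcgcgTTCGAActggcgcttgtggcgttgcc
Kif17: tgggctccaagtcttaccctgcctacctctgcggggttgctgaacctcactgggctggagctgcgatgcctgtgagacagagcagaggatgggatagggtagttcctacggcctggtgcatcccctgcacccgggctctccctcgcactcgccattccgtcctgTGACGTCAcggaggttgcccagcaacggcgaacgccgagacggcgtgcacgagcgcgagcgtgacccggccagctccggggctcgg
Kif5c: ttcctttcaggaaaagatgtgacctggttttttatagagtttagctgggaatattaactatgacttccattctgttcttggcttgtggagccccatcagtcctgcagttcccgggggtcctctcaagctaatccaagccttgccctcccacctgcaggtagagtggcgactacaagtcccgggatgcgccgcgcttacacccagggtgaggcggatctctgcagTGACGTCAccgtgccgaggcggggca
Kif11 and Kif22 each carry a CCAAT box and a CHR close to the RefSeq start, and Kif22 carries a further pair upstream. Kif24 carries several CCAAT boxes and a CHR near the RefSeq start. In Kif5c the CRE lies near the end of the window, and in Kif17 farther upstream.

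**Figure D1:**
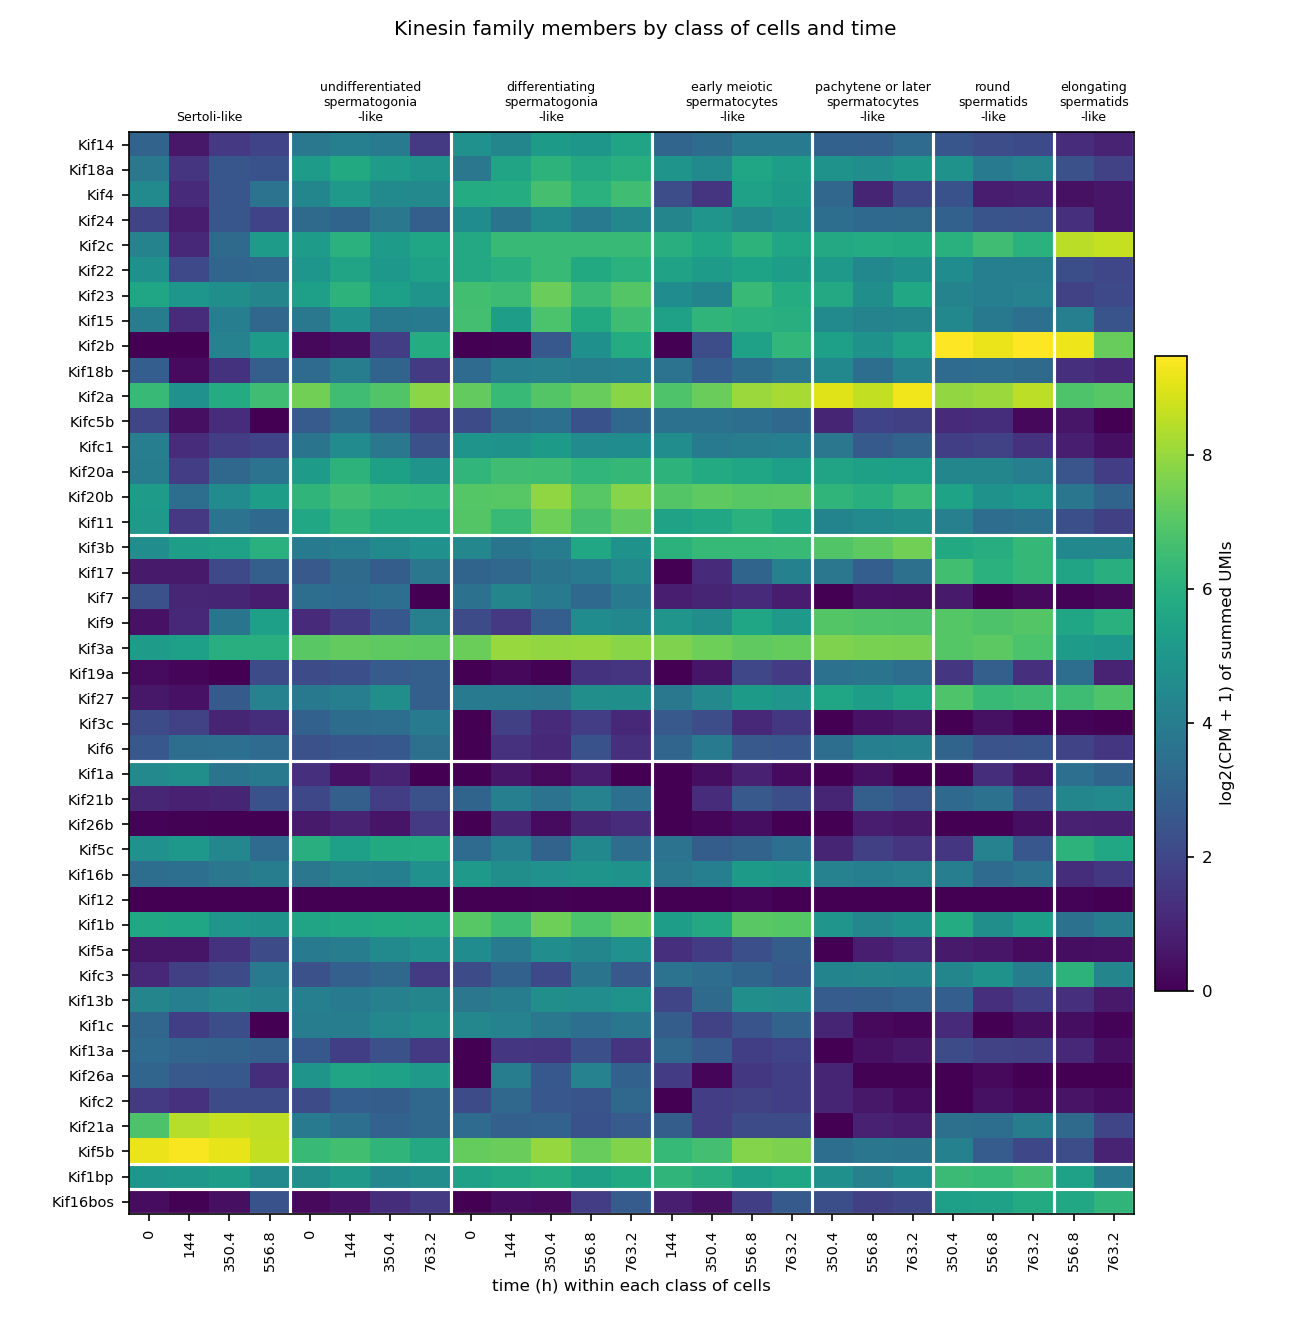
All 43 members (rows, grouped by role) in each cell class and time (columns), coloured by log2(CPM + 1) of the UMIs summed over the class. In Sertoli-like cells at 144 h the 16 mitotic members sum to 83.6 CPM, against 844 CPM in differentiating-spermatogonia-like cells, while Kif5b and Kif21a are higher in the Sertoli-like columns than in those of the germ cells.

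In Sertoli-like cells the mitotic kinesins were lower at 144 h than at 0 h, and the cargo kinesin Kif21a was higher. Together the 16 mitotic members summed to 83.6 CPM at 144 h, against 346 CPM at 0 h. Of 38 members compared, 16 were at least 2-fold lower and 3 at least 2-fold higher at 144 h, while over all features 21.7% were lower and 10.9% higher (32.6% either way). Of the lower members, 14 were mitotic, out of 15 mitotic members compared, with a median log2 ratio of -3.26 against -0.12 over all features. The remaining lower members were Kif7, a regulator of Hedgehog signalling at the cilium tip, and Kif1c, a carrier of vesicles. The spindle and cytokinesis genes that are not kinesins were also lower, at 16 of 19 compared with none higher and a median log2 ratio of -3.35. Of 11 adaptors and light chains of kinesins compared, 1 was higher and 3 lower, of 11 genes of cytoplasmic dynein none was higher and 1 lower, and of 12 genes of manchette and tail transport none passed the limit.

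Kif11, the motor that pushes spindle poles apart, had 1.97 CPM at 144 h and 34.4 CPM at 0 h, a ratio of 0.0573 (95% interval 0.0433 to 0.0746). Kif18b, which shortens the astral microtubules of the spindle, had 0.204 CPM at 144 h and 6.12 CPM at 0 h, a ratio of 0.0333 (0.0121 to 0.0738). Kif4, a chromosome-bound motor of condensation and the spindle midzone encoded on the X chromosome, had 1.19 CPM at 144 h and 21.8 CPM at 0 h. The interval of the ratio lay under 0.1 for all 3. Kif2c, which removes tubulin from microtubule ends at the centromere, had 1.16 CPM at 144 h and 17.7 CPM at 0 h. Kifc1, a minus-end motor that bundles spindle poles, had 1.33 CPM at 144 h and 15.8 CPM at 0 h. Kifc1 and its near-identical copy Kifc5b can share reads, so the value of each is uncertain, and both were lower. Kif23, the cytokinesis motor that pairs with Racgap1 in the centralspindlin complex, was the mitotic member that did not pass the 2-fold limit. Kif23 had 30.7 CPM at 144 h and 47.0 CPM at 0 h, a ratio of 0.653 (0.602 to 0.709), and Racgap1 had 108 CPM at 144 h and 102 CPM at 0 h.

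The Sertoli-like cells at 0 h were not uniform in these genes. In a cluster of 304 cells (cluster 43), Kif11 had 138 CPM, Kif4 85.8 CPM and Kif23 137 CPM. In the largest cluster of 1854 shallow cells (cluster 3, median 3260 UMIs per cell), Kif11 had 48.2 CPM and Kif4 31.8 CPM. In 715 deeply sequenced cells of the same library (cluster 14, median 18590 UMIs per cell), Kif11 had 3.54 CPM and Kif4 2.54 CPM. A group with low mitotic kinesins was thus already present at 0 h. The 3 clusters that held most cells at 144 h had 4.60, 1.47 and 2.10 CPM of Kif11 (clusters 8, 12 and 26), and Kif23 had 33.0, 29.0 and 32.6 CPM there, against 18.9 CPM in cluster 14 at 0 h. The smallest cluster with the Sertoli name at 0 h (195 cells, cluster 51) had 41.0 CPM of Kif5b, against 517 to 676 CPM in the other clusters at 0 h.

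Among the cargo kinesins of Sertoli-like cells, Kif21a was higher at 144 h and stayed so later. It encodes a plus-end motor that slows microtubule growth at the cell cortex. Kif21a had 113, 346, 397 and 378 CPM at 0, 144, 350.4 and 556.8 h. The ratio of 144 h to 0 h was 3.05 (2.94 to 3.17). In the deep clusters Kif21a had 395 CPM (cluster 12) and 294 CPM (cluster 26) at 144 h, against 139 CPM in cluster 14 at 0 h. Relaxing the limit on mitochondrial UMIs to 50% gave a value at 763.2 h as well, from 79 cells, and Kif21a then had 112, 344, 420, 399 and 380 CPM over the 5 times. Kif5b, the conventional kinesin heavy chain of most cells, had 591, 674, 562 and 390 CPM at the 4 times, and 587, 671, 578, 394 and 460 CPM over 5 times at the 50% limit. Kif5b was thus high at all times, and its ratio stayed inside the 2-fold limit between neighbouring times. Its light chain Klc2 was called higher, with 78.0 CPM at 144 h and 27.1 CPM at 0 h, at a ratio of 2.88. Its light chain Klc3 was called lower, with 1.19 CPM at 144 h and 7.06 CPM at 0 h.

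Kif1a, a carrier of dense-core vesicles known mostly from neurons, had 20.8, 25.0, 11.7 and 13.2 CPM over the 4 times in Sertoli-like cells. Its relative Kif1b, which carries mitochondria and vesicles, had 50.5, 46.2, 29.8 and 28.6 CPM. Kif5c, another conventional heavy chain, had 26.8, 31.9, 20.1 and 9.05 CPM. These 3 levels were lower at 350.4 and 556.8 h than at 144 h, and Kif1a passed the 2-fold limit at 350.4 against 144 h, with a ratio of 0.467 (0.325 to 0.653). Kif5c passed it at 556.8 against 350.4 h, with a ratio of 0.451 (0.227 to 0.829). The other members called higher at 144 h against 0 h were Kif9, a motor of the sperm flagellum, with 1.12 CPM at 144 h and 0.370 CPM at 0 h, and Kifc3, a minus-end motor of cell junctions, with 2.52 CPM at 144 h and 1.08 CPM at 0 h. Both stood at a few CPM or less.

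**Figure D2:**
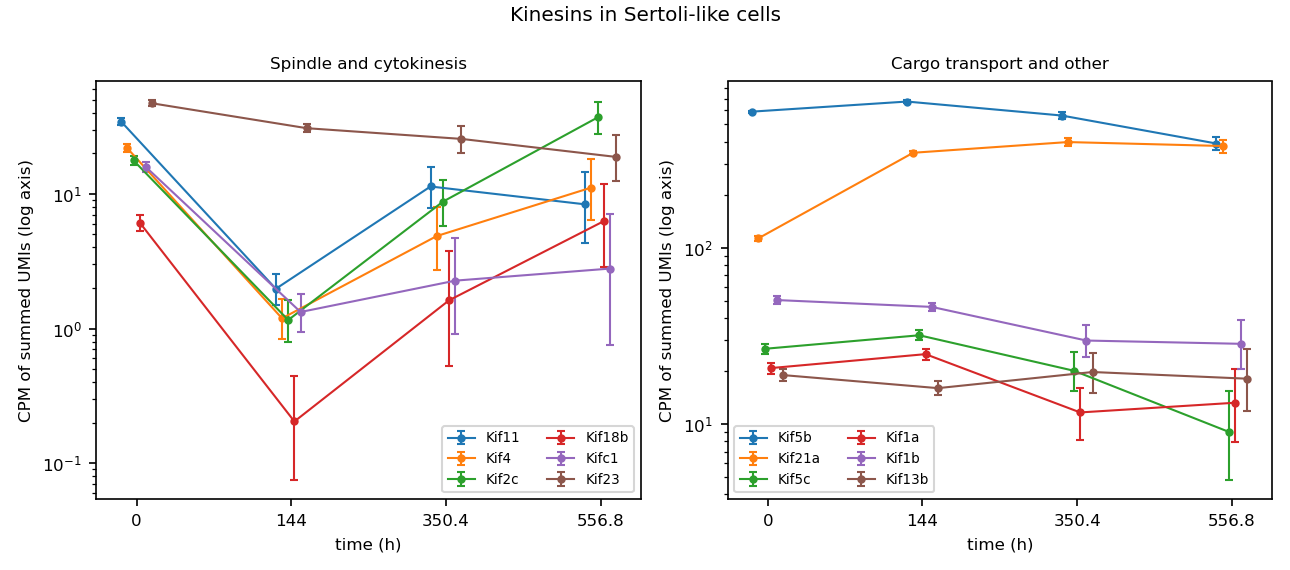
CPM on a log axis of 6 mitotic members (left) and 6 cargo members (right) in Sertoli-like cells at 0, 144, 350.4 and 556.8 h, with 95% Poisson intervals (1 library per time). Kif11 has 1.97 CPM at 144 h and 34.4 CPM at 0 h, Kif23 stays between 18.8 and 47.0 CPM, and Kif21a is between 346 and 397 CPM from 144 h on, against 113 CPM at 0 h.

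At 350.4 h most mitotic members were higher in the Sertoli-like sum than at 144 h, together with more of the germ-cell markers. Of 36 members compared, 16 were higher and 2 lower, against 15.3% higher and 8.51% lower over all features (23.8% either way). The mitotic members made up 12 of the higher ones, out of 14 compared. Of 8 cilium and flagellum members compared, 3 were higher (Kif9, Kif17 and Kif27) and 1 was lower (Kif3c, 3 UMIs at 350.4 h, a ratio of 0.367 with an interval of 0.0740 to 1.11). Kif2b had 17.5 CPM at 350.4 h and no UMI at 144 h. With 3 counts in place of 0 this gives a nominal ratio of 171.5, and the lower bound of the counting interval was 135. Kif2b encodes a microtubule depolymerase, and among the named classes it was highest in spermatids. Kif15, a spindle motor that works with Kif11, had 15.6 CPM at 350.4 h and 1.33 CPM at 144 h. Kif27, a Kif7 relative of motile cilia, had 5.51 CPM at 350.4 h and 0.374 CPM at 144 h, and Kif9 had 12.0 CPM at 350.4 h and 1.12 CPM at 144 h. Kif2c had 8.75 CPM at 350.4 h and 1.16 CPM at 144 h. The whole library held 21.7 CPM of Kif2b at 350.4 h, against 0.0446 CPM at 144 h.

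The cells of the 350.4 h sum were mostly 453 shallow cells (cluster 30, median 1353 UMIs), in which Kif2b had 49.7 CPM, Kif9 32.2 CPM and Kif11 28.2 CPM. In 63 deep Sertoli-like cells of that time (cluster 58), Kif2b had 6.44 CPM, Kif9 5.52 CPM and Kif11 5.98 CPM. Free RNA was not measured from empty droplets. Its profile was taken as the sum over all barcodes of the library, and its share was estimated from germ cell markers in the Sertoli-like sum. The sum over all barcodes held 76.7 CPM of Kif11 and 68.8 CPM of Kif15 at 350.4 h. After subtraction of an estimated 22.8% of free RNA, Kif11 stood at 0 CPM and Kif15 at 0 CPM at 350.4 h, while Kif2b kept 16.2 CPM and Kif21a stood at 493 CPM. After this subtraction 7 members were at least 2-fold apart between the times instead of 18, and with a minimum of 5000 UMIs per cell 6 were. At 556.8 against 350.4 h, 6 of 26 members compared were higher and 2 lower, against 14.6% higher and 6.58% lower over all features (21.2% either way). Kif2c had 36.9 CPM at 556.8 h and 8.75 CPM at 350.4 h, Kif9 39.7 and 12.0 CPM, Kifc3 13.9 and 3.56 CPM, Kif27 17.4 and 5.51 CPM, and Kif2b 35.5 and 17.5 CPM in the same order. Kif15 was lower, with 7.66 CPM at 556.8 h and 15.6 CPM at 350.4 h. After free RNA was subtracted the log2 ratio of Kif15 was 0.58. That ratio is against the counts that stand in for 0 at 350.4 h, so no direction is read from it. The elongating spermatid markers summed to 7791 CPM in the 53 cells at 556.8 h, against 369 CPM at 350.4 h. After free RNA was subtracted Kif2b stood at 0.931 CPM at 556.8 h and Kif9 at 22.4 CPM.

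Spermatogonia-like cells held the mitotic kinesins at all 5 times. The 16 mitotic members summed to 559, 696, 530 and 645 CPM in undifferentiated-spermatogonia-like cells at 0, 144, 350.4 and 763.2 h, and to 931, 844, 1347, 975 and 1343 CPM in differentiating-spermatogonia-like cells at the 5 times. The 16 include Kif2a, Kif2b and Kif2c, which were highest in later germ cell classes. The whole library held 377, 295 and 99.1 CPM of these 3 at 763.2 h. How much of the late sums came from free RNA was not measured, and these sums are given without subtraction. Against Sertoli-like cells of the 0 h library, 17 of 39 members compared were higher in spermatogonia-like cells and 3 lower, while over all features 28% were higher and 22.4% lower (50.5% either way). At 144 h the counts were 28 of 40 higher and 6 lower, against 40.2% and 23.6% over all features (63.8% either way), and all 15 mitotic members compared were higher. The lower members at both times included Kif1a, Kif21a and Kif5b. At 0 h Kif5b had 87.7 CPM in spermatogonia-like and 591 CPM in Sertoli-like cells, and Kif21a had 13.9 CPM in spermatogonia-like and 113 CPM in Sertoli-like cells.

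Kif5a, the third conventional heavy chain and known mostly from neurons, was higher in spermatogonia-like than in Sertoli-like cells, whereas Kif5b was lower there. Kif5a had 14.6 CPM in spermatogonia-like and 0.455 CPM in Sertoli-like cells at 0 h, a ratio of 32.0 (19.4 to 56.7). Kif27 had 13.2 CPM in spermatogonia-like and 0.541 CPM in Sertoli-like cells at 0 h. Kif17, a motor of cilia that in spermatids moves the CREM coactivator Fhl5 between nucleus and cytoplasm, had 5.35 CPM in spermatogonia-like and 0.626 CPM in Sertoli-like cells. Kif19a, which shortens cilia by depolymerizing their microtubules, had 3.49 CPM in spermatogonia-like and 0.228 CPM in Sertoli-like cells. Kif3a, the motor subunit of kinesin-2 that drives intraflagellar transport, had 132 CPM in spermatogonia-like and 36.7 CPM in Sertoli-like cells, a ratio of 3.61 (3.37 to 3.86). At 144 h Kif2c had 77.3 CPM in spermatogonia-like and 1.16 CPM in Sertoli-like cells, Kif18b 15.5 and 0.204 CPM, and Kif11 80.7 and 1.97 CPM. Kif4 had 49.1 CPM in spermatogonia-like and 1.19 CPM in Sertoli-like cells at 144 h, and Kif20a, which brings the chromosomal passenger complex to the midzone, had 84.97 and 2.31 CPM. These 5 mitotic members had ratios of 66.9, 76.1, 40.9, 41.2 and 36.8 at 144 h.

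Between the times, 7 of 40 members compared were higher and 5 lower in spermatogonia-like cells at 144 h than at 0 h, against 10.9% higher and 15.5% lower over all features (26.4% either way). Scaling by the median of ratios gave 4 higher and 5 lower. Here and below, shares over all features are for scaling by total UMIs only. They are not the background of counts with the median of ratios. The cells of this class were mostly undifferentiated at 0 h (2211 undifferentiated and 24 differentiating) and mostly differentiating at 144 h (299 and 955 in the same order). Kif21b, a relative of Kif21a, had 12.7 CPM at 144 h and 3.30 CPM at 0 h. Kif4 had 49.1 CPM at 144 h and 20.4 CPM at 0 h, Kif20a 84.97 and 37.5 CPM, Kif15 34.2 and 15.2 CPM, and Kif2c 77.3 and 37.7 CPM in the same order. Kif5c had 24.1 CPM at 144 h and 60.3 CPM at 0 h, and Kif2a, a depolymerase of spindle poles, had 86.2 CPM at 144 h and 174 CPM at 0 h. Kif13a, Kif19a and Kif1a were also lower, at 2.04, 1.48 and 0.460 CPM at 144 h and 4.92, 3.49 and 1.39 CPM at 0 h. The Kif1a values rest on 14 UMIs at 144 h and 29 UMIs at 0 h. Kif1a was higher at 144 h with a minimum of 5000 UMIs per cell, under which cells were clustered and named anew (log2 ratio 0.72). It was also higher at 144 h after free RNA was subtracted. Within undifferentiated-spermatogonia-like cells alone, 1 of 40 members compared was higher at 144 h (Kif15, 26.5 CPM at 144 h and 12.9 CPM at 0 h) and 2 were lower (Kif13a and Kif1a), against 4.69% and 9.13% over all features (13.8% either way). Scaling by the median of ratios gave 0 higher and 3 lower there. Most of these cells at 0 h were shallow (1963 cells of cluster 2, median 3373 UMIs), and most at 144 h were deep (265 cells of cluster 17, median 37100 UMIs).

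Mitotic members were higher in differentiating than in undifferentiated cells at 350.4 h, while none passed the 2-fold limit at 144 h, and the difference between these times was not tested. In differentiating-spermatogonia-like against undifferentiated-spermatogonia-like cells at 350.4 h, 17 of 38 members compared were higher and 6 lower, against 19.1% and 17% over all features (36.1% either way). Of the 16 mitotic members 13 were higher and none lower, or 9 and none with the median of ratios. At 144 h, 2 of 39 were higher and 5 lower, against 9.44% and 16.8% over all features (26.3% either way), and of 15 mitotic members compared none was higher or lower. Kif15 had 111 CPM in differentiating and 13.4 CPM in undifferentiated cells at 350.4 h, a ratio of 8.28 (5.75 to 12.4), while at 144 h it had 38.5 and 26.5 CPM in the same order. Kif4 had 102 CPM in differentiating and 22.1 CPM in undifferentiated cells at 350.4 h, and Kif23 had 160 and 39.7 CPM. Kif5b and Kif1b were higher as well, at 251 and 168 CPM in differentiating cells and 72.4 and 53.0 CPM in undifferentiated cells. Different clusters held the differentiating cells at each time: clusters 10 and 39 at 144 h, clusters 10, 15 and 40 at 350.4 h, and cluster 21 at 556.8 and 763.2 h.

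Several cilium and cargo members were higher in the undifferentiated cells. Kif26a, a kinesin-like regulator of signalling without motor activity, had 29.0, 44.9, 41.5 and 33.3 CPM in undifferentiated-spermatogonia-like cells at 0, 144, 350.4 and 763.2 h. In differentiating cells Kif26a had 14.8, 5.05, 17.6 and 6.61 CPM at 144, 350.4, 556.8 and 763.2 h. Kif5c had 61.7, 39.3, 53.5 and 54.1 CPM in undifferentiated cells at these times, and 15.9, 7.18, 20.2 and 9.37 CPM in differentiating cells. Both members were higher in undifferentiated cells at 144, 350.4 and 763.2 h, when both classes held over 30 cells. Kif3c, a kinesin-2 subunit, had 6.77, 9.34, 9.68 and 14.6 CPM in undifferentiated cells, and 2.48, 1.20, 2.29 and 1.06 CPM in differentiating cells. At 350.4 h Kif6, a cilium kinesin, had 1.13 CPM in differentiating and 5.07 CPM in undifferentiated cells, and at 144 h Kif19a had 0.152 CPM (3 UMIs) in differentiating and 3.92 CPM in undifferentiated cells, a ratio of 0.0388 (0.00769 to 0.121). Kif21b and Kif7 went the other way at 144 h, with 16.2 and 18.9 CPM in differentiating cells and 6.35 and 8.87 CPM in undifferentiated cells.

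**Figure D3:**
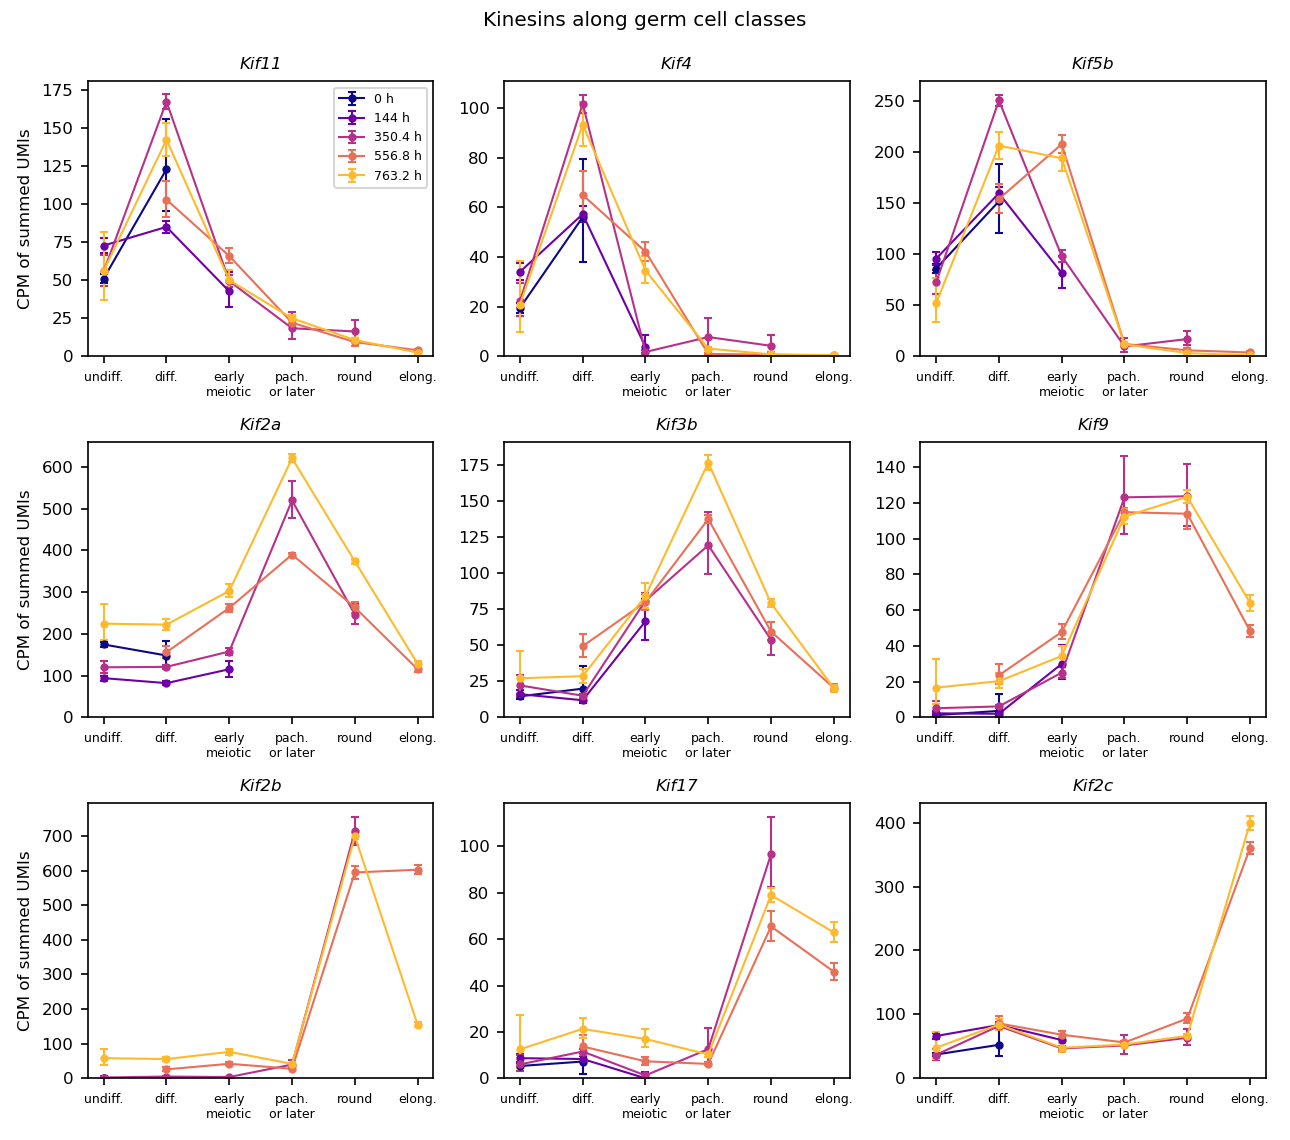
CPM of 9 members (1 panel each) over the germ cell classes in order of development, with 1 line per time and 95% Poisson intervals (1 library per time). Kif11 and Kif4 are highest in differentiating-spermatogonia-like cells, Kif2a and Kif3b in pachytene or later cells at the times that have them, Kif2b and Kif17 in spermatids, and Kif2c in elongating spermatids, at 361 and 400 CPM.

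In spermatocyte-like cells the flagellar members Kif9, Kif6 and Kif3b were higher than in spermatogonia-like cells of the same library. At 144 h, when 35 spermatocyte-like cells were present, 4 of 37 members compared were higher and 13 lower, against 18.7% and 34.8% over all features (53.5% either way). At 350.4 h, 6 of 39 were higher and 19 lower, against 23.7% and 36.8% over all features (60.5% either way). Of 16 genes of manchette and tail transport, 12 were higher and 1 lower at 350.4 h. Kif9 had 29.9 CPM in spermatocyte-like and 2.07 CPM in spermatogonia-like cells at 144 h, a ratio of 14.5 (9.48 to 21.8), and 33.2 and 6.04 CPM in the same order at 350.4 h. Kif3b, the partner of Kif3a, had 66.6 CPM in spermatocyte-like and 13.3 CPM in spermatogonia-like cells at 144 h, and 84.0 and 15.5 CPM at 350.4 h. Kif6 had 13.7 CPM in spermatocyte-like and 1.41 CPM in spermatogonia-like cells at 350.4 h. With at least 5000 UMIs per cell, the log2 ratio at 144 h stood at -0.050 for Kif3b and -0.80 for Kif6, against 2.32 and 1.46 with the main settings. Cells were clustered and named anew under this limit, so the classes can hold other cells. With the main settings the spermatocyte-like cells at 144 h already had a median of 32180 UMIs. With the main settings these 3 were higher at both times, and so was Kif13a, a carrier of endosomes, with 8.23 CPM in spermatocyte-like and 2.04 CPM in spermatogonia-like cells at 144 h. Kif4 had 3.74 CPM in spermatocyte-like and 49.1 CPM in spermatogonia-like cells at 144 h, and 2.26 and 96.2 CPM at 350.4 h, a ratio of 0.0235 (0.0156 to 0.0340). With the limit of 5000 UMIs and the cells named anew, the log2 ratio of Kif4 at 144 h was 0.54, and that of Kif13a at 350.4 h was -0.72. Kif7, Kif26a and Kif5a were lower as well, at 0.887, 0.161 and 1.94 CPM in spermatocyte-like and 13.7, 7.57 and 23.7 CPM in spermatogonia-like cells at 350.4 h. The Kif26a value in spermatocyte-like cells rests on 2 UMIs, and its ratio was 0.0213 (0.00257 to 0.0778). Kif17 and Kif21b had no UMI in the 35 cells at 144 h, against 8.45 and 12.7 CPM in spermatogonia-like cells. With 3 counts in place of 0 the nominal ratios were 0.266 for Kif17 and 0.177 for Kif21b. Kif23 had 21.1 CPM in spermatocyte-like and 152 CPM in spermatogonia-like cells at 350.4 h.

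Kif4 differed between the early meiotic cells of different libraries. In early-meiotic-spermatocyte-like cells Kif4 had 3.74, 1.76, 42.2 and 34.5 CPM at 144, 350.4, 556.8 and 763.2 h. The cells at 144 and 350.4 h fell in cluster 41, and those at 556.8 and 763.2 h mostly in clusters 5 and 55. Kif5b in the same sums had 81.6, 98.2, 208 and 194 CPM, and Kif23 had 23.2, 18.4, 84.6 and 57.5 CPM. Cluster 55 had 66.1 CPM of Kif4 and 215 CPM of Kif23 at 556.8 h, and cluster 5 had 42.1 and 76.9 CPM in the same order. The class therefore does not hold the same cells at each time, and no change over time is read from it.

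Against early meiotic cells at 556.8 h, 5 of 42 members compared were higher in pachytene-or-later-spermatocyte-like cells and 25 lower, while over all features 22% were higher and 37.7% lower (59.7% either way). Scaling by the median of ratios added 0.52 to every log2 ratio and gave 7 higher and 16 lower, for which no share over all features was computed. Of the 15 cargo members compared, 12 were lower and 2 higher (10 and 2 with the median of ratios), and the cargo members together summed to 85.1 CPM in pachytene or later cells and 438 CPM in early meiotic cells. Kif5b had 12.1 CPM in pachytene or later and 208 CPM in early meiotic cells, a ratio of 0.0582 (0.0536 to 0.0631), and at 763.2 h it had 11.6 and 194 CPM in the same order. Kif4 had 0.956 CPM in pachytene or later and 42.2 CPM in early meiotic cells at 556.8 h. Both Kif4 and Kif5b were lower in the early meiotic cells of the earlier libraries, which fell in another cluster. These ratios therefore hold for the early meiotic cells of the library named. Kif1b had 20.0 CPM in pachytene or later and 131 CPM in early meiotic cells, Kif1c 0.185 and 4.53 CPM, and Kif26a 0.0463 CPM (3 UMIs) and 1.90 CPM, a ratio of 0.0243 (0.00465 to 0.0815). Of 12 genes of cytoplasmic dynein, the motor of the opposite direction, 3 were higher and 3 lower.

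The members that were higher in pachytene or later cells at 556.8 h included 3 flagellar ones, Kif19a, Kif6 and Kif9. Kif19a had 11.5 CPM in pachytene or later and 3.08 CPM in early meiotic cells, a ratio of 3.73 (2.64 to 5.43). Kif6 had 16.1 and 5.25 CPM, and Kif9 had 115 and 47.8 CPM in the same order. Kifc3 had 18.7 CPM in pachytene or later and 7.33 CPM in early meiotic cells. The last of the 5, Kif26b, had 0.632 and 0.272 CPM (41 and 3 UMIs), a ratio of 2.33 (0.743 to 11.8). At 763.2 h, 6 of 37 members compared were higher and 16 lower, against 23.9% and 40.9% over all features (64.8% either way), or 8 higher and 13 lower with the median of ratios. Kif9, Kif19a, Kifc3 and Kif6 were higher there too, together with Kif2a and Kif3b. Kif2a had 621 CPM in pachytene or later and 303 CPM in early meiotic cells at 763.2 h, and Kif3b had 176 and 84.1 CPM. Over 350.4, 556.8 and 763.2 h, pachytene or later cells had 520, 390 and 621 CPM of Kif2a, 119, 137 and 176 CPM of Kif3b, and 123, 115 and 112 CPM of Kif9. Between 763.2 and 556.8 h, 1 of 40 members compared was higher in this class and 2 lower, against 7.75% and 4.87% over all features (12.6% either way). Kif4 had 3.12 CPM at 763.2 h and 0.956 CPM at 556.8 h, and Kif1a and Kifc2 stood below 1 CPM at both times.

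Relative to the other cells of the 556.8 h library, the members with the largest ratio in spermatocyte-like cells were Kif3b (129 against 49.9 CPM, ratio 2.58), Kifc5b (ratio 2.43), Kif6 (ratio 2.27) and Kif2a (371 against 174 CPM, ratio 2.13). In each of the other broad classes the largest ratio was above these. Sertoli-like cells at 0 h had Kif21a at a ratio of 8.66, Kif1a at 6.59, Kif5b at 4.31 and Kif6 at 1.92. Spermatogonia-like cells at 350.4 h had Kif4 at 27.4, Kif5a at 18.9, Kif7 at 9.37 and Kif26a at 8.49. Spermatid-like cells at 763.2 h had Kif16bos at 7.10, Kif2b at 6.23, Kif1a at 5.003 and Kif17 at 4.33. Each ratio is of 1 class to all other kept cells of 1 library, so it depends on which other cells that library holds.

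In spermatid-like cells a few members were many times higher than in spermatocyte-like cells, and more were lower when sums were scaled by total UMIs. At 763.2 h, 9 of 41 members compared were higher and 23 lower, against 27.2% and 43.8% over all features (71% either way). At 556.8 h, 12 of 42 were higher and 26 lower, against 26.7% and 50.6% (77.3% either way). Scaling by the median of ratios, which added 0.83 and 0.94 to the log2 ratios at 763.2 and 556.8 h, gave 11 higher and 11 lower at 763.2 h and 12 higher and 18 lower at 556.8 h. These rescaled counts have no share over all features beside them, since the shares hold for scaling by total UMIs. At both times 13 of 16 mitotic members were lower and 2 were higher, and with the median of ratios 3 were lower at 763.2 h and 10 at 556.8 h. The 2 higher members under both scalings were the depolymerases Kif2b and Kif2c. Of the 20 spindle and cytokinesis partners that are not kinesins, none was higher, with 18 lower at 763.2 h and 19 lower at 556.8 h (13 and 16 with the median of ratios).

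Kif2b had 556 CPM in spermatid-like and 53.5 CPM in spermatocyte-like cells at 763.2 h, a ratio of 10.4 (9.91 to 11.0), and 600 and 29.9 CPM in the same order at 556.8 h. Kif2c had 152 CPM in spermatid-like and 52.3 CPM in spermatocyte-like cells at 763.2 h, and 283 and 57.8 CPM at 556.8 h. The third depolymerase of this subfamily, Kif2a, had 312 CPM in spermatid-like and 556 CPM in spermatocyte-like cells at 763.2 h, and 158 and 371 CPM at 556.8 h. Among the named germ classes Kif2a was thus highest in pachytene or later cells and Kif2c in elongating cells, and Kif2b was high in spermatids. Kif2b had 714, 594 and 699 CPM in round-spermatid-like cells at 350.4, 556.8 and 763.2 h. Its highest value in a named germ class other than round and elongating spermatids was 76.4 CPM, in early meiotic cells at 763.2 h, when the whole library held 295 CPM. Elongating spermatid markers summed to 5967 CPM in that sum.

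Kif17 had 74.7 CPM in spermatid-like and 12.3 CPM in spermatocyte-like cells at 763.2 h, a ratio of 6.06 (5.45 to 6.76), and 51.7 and 6.39 CPM in the same order at 556.8 h. An exon of Sh2d5 overlaps Kif17 on the same strand in the annotation, so reads of this overlap cannot be assigned with certainty. Fhl5, the coactivator that Kif17 is known to move, had 824 CPM in spermatid-like and 32.9 CPM in spermatocyte-like cells at 556.8 h. Kif16bos had 58.8 CPM in spermatid-like and 3.83 CPM in spermatocyte-like cells at 763.2 h, and 46.9 and 2.48 CPM at 556.8 h, while Kif16b itself had 8.77 and 19.2 CPM at 763.2 h. Kif1bp, which binds kinesins and blocks their hold on microtubules, had 76.2 CPM in spermatid-like and 29.1 CPM in spermatocyte-like cells at 763.2 h. Kif21a had 12.2 CPM in spermatid-like and 1.38 CPM in spermatocyte-like cells at 763.2 h, and Kif5c had 16.7 and 3.08 CPM. Kif1a had 2.30 CPM in spermatid-like cells at 763.2 h and 0.0655 CPM (2 UMIs) in spermatocyte-like cells, a ratio of 35.1 (9.49 to 293). Kif27 was also higher, with 98.7 and 43.9 CPM at 763.2 h. Members of all 3 role groups were thus among the higher ones.

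The lower members in spermatid-like cells included both spindle motors and carriers. Kif5b had 2.66 CPM in spermatid-like and 41.1 CPM in spermatocyte-like cells at 763.2 h, a ratio of 0.0648 (0.0537 to 0.0776). Kif4 had 0.685 CPM in spermatid-like and 7.76 CPM in spermatocyte-like cells, and Kifc1 had 1.29 and 8.35 CPM at 763.2 h. The spermatocyte-like sum pools early meiotic with pachytene or later cells. Kif5b and Kif4 were already lower in the pachytene or later cells than in the early meiotic cells of the same library. Their ratios are thus not the difference between pachytene or later cells and spermatids. Kifc5b, the copy of Kifc1, had 0.101 and 3.37 CPM, and Kif3c had 0.0403 CPM (2 UMIs) and 0.819 CPM, a ratio of 0.0492 (0.00565 to 0.198). At 556.8 h Kif23 had 6.51 CPM in spermatid-like and 33.9 CPM in spermatocyte-like cells, Kif11 5.54 and 28.4 CPM, and Kif16b 3.59 and 18.6 CPM. Kif3a and Kif3b, the motor pair of intraflagellar transport, had 90.9 and 64.0 CPM in spermatid-like and 178 and 156 CPM in spermatocyte-like cells at 763.2 h, at ratios of 0.511 and 0.409. Kif3a was thus inside the 2-fold limit, and Kif3b passed it with scaling by total UMIs but not with the median of ratios. Their accessory subunit Kifap3 was called higher at 556.8 h, with 322 CPM in spermatid-like and 116 CPM in spermatocyte-like cells. Klc3, a light chain known from the sperm tail, had 118 CPM in spermatid-like and 5.71 CPM in spermatocyte-like cells at 556.8 h, a ratio of 20.7, while Klc1, Klc2 and Klc4 were lower.

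**Figure D4:**
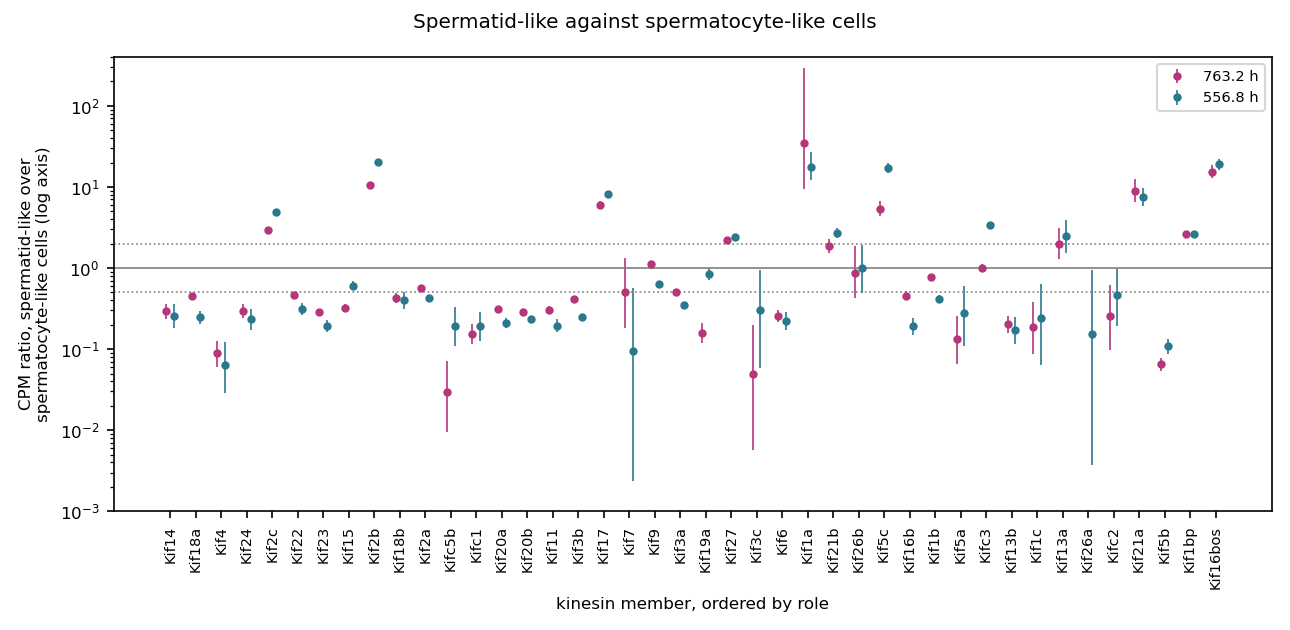
Ratio of spermatid-like to spermatocyte-like CPM per member at 763.2 h and 556.8 h on a log axis, with exact 95% intervals for counting error (1 library per time) and dotted lines at ratios of 2 and 0.5. Kif2b (10.4 at 763.2 h and 20.1 at 556.8 h), Kif16bos (15.3 and 18.9) and Kif17 (6.06 and 8.08) lie above the upper line at both times, and most mitotic members lie below the lower one.

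Within the spermatids, Kif2c, Kif5c and Kif1a were higher in elongating than in round cells at both times. At 763.2 h, 5 of 35 members compared were higher and 23 lower in elongating-spermatid-like cells, against 7.82% and 66.3% over all features (74.1% either way). At 556.8 h, 4 of 33 were higher and 17 lower, against 9.97% and 44.3% (54.3% either way). Scaling by the median of ratios added 1.40 and 0.91 to the log2 ratios at 763.2 and 556.8 h and gave 9 higher and 8 lower at 763.2 h and 9 higher and 5 lower at 556.8 h. The shares over all features hold for scaling by total UMIs and are not the background of these rescaled counts. The balance of higher and lower members in this comparison therefore depends on the scaling. Kif2c had 400 CPM in elongating and 66.4 CPM in round cells at 763.2 h, a ratio of 6.02 (5.74 to 6.33), and 361 and 93.5 CPM at 556.8 h. Kif5c had 49.5 CPM in elongating and 4.96 CPM in round cells at 763.2 h, a ratio of 9.97 (8.44 to 11.8), and 68.9 and 17.2 CPM at 556.8 h. Kif1a had 7.33 CPM in elongating and 0.466 CPM in round cells at 763.2 h, and 9.93 and 1.34 CPM at 556.8 h. These 3 were higher under both scalings. Kif21b had 22.1 CPM in elongating and 4.00 CPM in round cells at 763.2 h, and Kif26b had 0.788 and 0.274 CPM there, although with every cell weighing the same Kif26b was lower in elongating cells (log2 ratio -0.31). Kifc3 was called higher at 556.8 h only, with 68.9 CPM in elongating and 27.7 CPM in round cells, against 18.9 and 14.9 CPM at 763.2 h.

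Kif1bp had 14.6 CPM in elongating and 98.0 CPM in round cells at 763.2 h, a ratio of 0.149 (0.128 to 0.172). Kif18a, a motor that aligns chromosomes, had 2.60 CPM in elongating and 18.1 CPM in round cells, Kif20a 2.29 and 15.5 CPM, and Kif18b 1.10 and 8.61 CPM at 763.2 h. Kif3a had 36.1 CPM in elongating and 135 CPM in round cells at 556.8 h, while Kif23 had 2.67 and 15.9 CPM and Kif16b 1.37 and 8.85 CPM. Kif2b differed between the libraries. It had 155 CPM in elongating and 699 CPM in round cells at 763.2 h, but 602 and 594 CPM in the same order at 556.8 h. The elongating cells at 556.8 h lay in clusters 20 (439 cells) and 22 (391 cells), and at 763.2 h most lay in clusters 38 (356 cells) and 47 (251 cells). Within cluster 20 Kif2b had 296 CPM at 763.2 h and 634 CPM at 556.8 h, and within cluster 22 it had 297 and 411 CPM. Cluster 38 had 71.8 CPM of Kif2b. In round-spermatid-like cells 4 of 34 members compared were lower at 763.2 h than at 556.8 h and none was higher, against 9.63% lower and 3.27% higher over all features (12.9% either way). They were Kif19a (1.45 CPM at 763.2 h and 6.34 CPM at 556.8 h), Kif5c (4.96 and 17.2 CPM), Kif21b (4.00 and 10.8 CPM) and Kif1a (0.466 and 1.34 CPM).

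Of the members not yet described, several were low. Kif12, a cargo kinesin known from the kidney, had 0 to 2 UMIs in whole libraries and was compared nowhere. Kif26b stood at or below 2.08 CPM in every germ class and Sertoli-like sum. Kif13b, a carrier of membrane cargo, had 19.0, 16.0, 19.8 and 18.1 CPM in Sertoli-like cells over the 4 times. Kif14, a motor of cytokinesis, had 27.1, 19.2, 34.9, 31.4 and 45.0 CPM in differentiating-spermatogonia-like cells over the 5 times, and Kif24, which restrains cilium growth in cycling cells, had 23.5, 11.4, 21.7, 14.4 and 20.0 CPM there. Kif20b, another motor of cytokinesis, had 125, 128, 237, 130 and 216.5 CPM in those cells, and Kif22, which binds chromosome arms, had 52.4, 60.4, 83.3, 52.9 and 65.6 CPM. Exons of other genes lie opposite members that include Kif18a (Mettl15), Kif4 (Pdzd11), Kif7 (Ticrr) and Kif2a (Dimt1) in the annotation, and the sources used here do not say whether counting used the strand.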

How the data were processed

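Single-cell RNA was measured in 5 libraries of synchronized mouse whole testis, 1 per time. The deposited matrices are raw UMI counts for every gene in every barcode, and their headers name Cell Ranger 3.0.2; per the submitters' processing notes, mm10 and Seurat 4.3.0.1 were used, with no role given. Per the labels' protocols, cells settled repeatedly and the supernatant was removed, which can set the shares of cell types. Cells below 1000 UMIs or 500 genes, or with 20% or more of their UMIs from mitochondrial genes, were dropped, and barcodes with a Scrublet score over 0.25 were removed as doublets (150 to 393 per library). Clusters came from 3000 variable genes without kinesins or the partner lists, 40 components, 15 neighbours and Leiden resolution 2 (scanpy 1.11.5, igraph 0.11.9, scikit-learn 1.9.0), and were named from markers. Class sums of at least 20 cells were scaled to CPM. Ratios have exact conditional binomial intervals and levels Poisson intervals (scipy 1.17.1, numpy 2.4.6), and 3 counts stand in for 0. The interval code was checked on simulated data. Up to 5 members each way per comparison, ranked by the interval bound nearest 1, and the 4 leading members of each broad class were named by rule, other members by role. Members, role groups and the lists of kinesin partners, spindle partners, manchette genes and dynein were chosen with earlier results of these data known. In all, 9 alternatives were run. Those that changed the limits on UMIs or mitochondrial UMIs, the resolution or the removal of doublets clustered and named the cells anew. A class can therefore hold other cells in them. The subtraction of free RNA took the sum over all barcodes of a library as its profile. Its share was set from germ cell markers in somatic classes and from somatic markers in germ classes.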

Additional observations from a re-analysis of the deposited data

Results flagged for a closer look

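In 13 members the ratio of 144 h to 0 h lay on opposite sides of 1 in Sertoli-like and in undifferentiated-spermatogonia-like cells, with both intervals excluding 1 and at least a 2-fold difference in Sertoli-like cells. Each cell type had 1 library per time, and the difference between the cell types was not tested. The share of all features that meet this rule was not computed, so the count has no background. In undifferentiated-spermatogonia-like cells the rule sets no fold limit. The median log2 ratio over all features was 0.125 there, and the median of ratios moved every log2 ratio by -0.17. Kif21a was the member that was higher in Sertoli-like cells at 144 h and lower in undifferentiated-spermatogonia-like cells, at ratios of 3.05 and 0.721. The other 12 are mitotic and were lower in Sertoli-like cells and higher in undifferentiated-spermatogonia-like cells. The ratio in Sertoli-like cells is given first for each. Kif11 had ratios of 0.0573 and 1.42, Kif4 of 0.0546 and 1.74, Kif2c of 0.0653 and 1.78, and Kif18b of 0.0333 and 1.70. Kifc1 had ratios of 0.0838 and 1.95, and its near-identical copy Kifc5b of 0.104 and 1.67. Kif14 had ratios of 0.0762 and 1.24, Kif15 of 0.0908 and 2.06, Kif18a of 0.138 and 1.47, and Kif20a of 0.155 and 1.88. Kif20b had ratios of 0.272 and 1.31, and Kif22 of 0.125 and 1.49. None of these ratios in undifferentiated-spermatogonia-like cells reached 2 except that of Kif15. The undifferentiated cells at 0 h were mostly shallow and those at 144 h mostly deep. Within cluster 17, which was deep at both times, Kif11 had 73.0 CPM at 144 h and 58.5 CPM at 0 h, and Kif4 had 34.2 and 21.5 CPM in the same order.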

How the results depend on the processing

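With 1 library per time there is no replicate error, and depth limits low members, since a call needs 20 UMIs over 2 sums. No paired analysis was possible because each time had 1 library. Of the counts of members at least 2-fold apart in the 10 main comparisons, 79 of 88 recomputed values were within 1.5 times the reported one, and the cause of the others was not tested. At 350.4 against 144 h in Sertoli-like cells (18 members), 6 were apart with at least 5000 UMIs per cell and 7 after free RNA was subtracted. At 556.8 against 350.4 h in Sertoli-like cells (8 members), 16 were apart at a limit of 50% mitochondrial UMIs, 13 with at least 5000 UMIs, 5 after free RNA was subtracted and 14 without the minimum of 20 UMIs. Spermatogonia-like against Sertoli-like cells at 0 h gave 13 members instead of 20 with every cell weighing the same. Spermatocyte-like against spermatogonia-like cells at 144 h gave 10 instead of 17 with at least 5000 UMIs. Elongating against round spermatid-like cells at 763.2 h gave 17 instead of 28 with the median of ratios. Of 152 named values, 9 changed direction under some alternative, as log2 ratios. In Sertoli-like cells at 556.8 against 350.4 h, Kif15 (main -1.02) stood at 0.25 with at least 5000 UMIs and 0.57 at the 50% limit. With free RNA subtracted Kif15 stood at 0.58, but against the counts that stand in for 0 at 350.4 h. In the same comparison Kif2b (main 1.02) stood at -0.67 with every cell weighing the same and -4.12 with free RNA subtracted. In spermatocyte-like against spermatogonia-like cells at 144 h with at least 5000 UMIs, Kif3b stood at -0.050 (main 2.32), Kif6 at -0.80 (main 1.46) and Kif4 at 0.54 (main -3.71). At 350.4 h Kif13a stood at -0.72 with at least 5000 UMIs (main 1.41). Kif1a in spermatogonia-like cells at 144 against 0 h (main -1.59) stood at 0.72 with at least 5000 UMIs and 0.53 with free RNA subtracted, and in pachytene or later cells at 763.2 against 556.8 h (main -1.44) at 1.35 with free RNA subtracted. Kif26b in elongating against round cells at 763.2 h (main 1.52) stood at -0.31 with every cell weighing the same. In some alternative 38 named values were under 2-fold, and 33 moved by less than 1.5 times in all. Besides the shifts given with the results, the median of ratios moved log2 ratios by -0.14 for spermatogonia-like and -0.17 for undifferentiated-spermatogonia-like cells at 144 against 0 h, by -0.25 for spermatogonia-like against Sertoli-like cells at 144 h, by -0.21 for spermatocyte-like cells at 144 h, by -0.15 for differentiating cells at 350.4 h and by 0.63 for pachytene or later cells at 763.2 h. Resolution 1 gave no value for spermatocyte-like cells at 144 h, and the 10% mitochondrial limit gave none for Sertoli-like cells at 556.8 h.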

Other observations

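In other somatic cells a few members had levels not described above. Kif26a had 77.9 CPM at 0 h and 93.4 CPM at 144 h in endothelial-like cells. Kif21b, the relative of Kif21a, had 79.5, 77.7, 72.0, 43.6 and 53.0 CPM over the 5 times in peritubular-myoid-like cells, which contract the tubule wall. Kif1c had 23.9, 24.1, 40.0, 51.3 and 53.0 CPM in those cells, and 41.4 and 46.7 CPM in endothelial-like cells at 0 and 144 h. Kif5b had 296 and 246 CPM in Leydig-like cells at 0 and 144 h.

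Many germ cells matched the markers of no single class and entered no comparison. At 144 h a cluster of 1543 such cells (cluster 4), whose leading genes include Stra8, the retinoic acid target of meiotic entry, had 253 CPM of Kif23, 165 CPM of Kif1b, 190 CPM of Kif5b, 80.3 CPM of Kif11 and 58.0 CPM of Kif4. At 763.2 h a cluster of 3344 such cells (cluster 0) had 230 CPM of Kif2b, 420 CPM of Kif2a and 33.6 CPM of Kif17.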
